A study of Mus musculus with 2 samples.

Results

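The replication-dependent histone genes are the clustered genes that encode the linker histone H1 and the core histones H2A, H2B, H3 and H4. They were taken as the protein-coding genes whose GENCODE M21 symbol begins with Hist1h, Hist2h, Hist3h or Hist4h, and 65 of the 47069 genes in the count table met this rule. They comprised 6 H1, 18 H2A, 16 H2B, 12 H3 and 13 H4 genes, of which 52 were Hist1 genes, 10 were Hist2 genes, 2 were Hist3 genes and 1 was a Hist4 gene. Poly(A)-selected RNA of mouse pituitary cells was measured in 2 libraries. The cells came from randomly cycling C57BL/6 females, were dispersed with collagenase and pancreatine, and were stored at once in RNA-Best or in RNAlater, reagents that stabilize RNA. A sample held 500000 to 700000 cells pooled from 5 pituitaries, and each reagent was represented by 1 library. The protocol in the labels gives an age of 10 to 12 weeks. The field on cycling gives 3 weeks and does not say whether this is an age. The RNA-Best library held 53915047 counts and the RNAlater library 44917492.

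With 1 library per reagent there was no replicate check and no test between reagents. Levels are counts per 1000000 of the library total (CPM), and where a pair of values is given, RNA-Best comes first and RNAlater second. Intervals are exact 95% conditional binomial intervals of the ratio of counts. They cover counting error only, because reads amplified by PCR without molecular identifiers are not independent molecules, and they do not cover differences between animals or preparations. In bulk cells, fewer cells of a type and less RNA per cell cannot be told apart.

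Histones package DNA into nucleosomes, and the linker histone H1 binds where DNA enters and leaves them. Most of their mRNA is made during S phase, when new DNA has to be packaged. These mRNAs are known as the class of mRNA in animal cells that ends in a conserved stem-loop rather than in a poly(A) tail. The stem-loop binding protein SLBP holds the stem-loop, and the U7 snRNP directs the cut just downstream of it. Some of these genes can also make longer, polyadenylated transcripts from signals downstream of the stem-loop, in particular in cells that have stopped dividing. Poly(A) selection favours such transcripts.

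The stem-loop set these genes apart from others. It was found in an annotated transcript of 44 of the 65 genes (67.7%) and of 25 of 21572 other protein-coding genes (0.116%). It was searched with a fixed pattern of 16 bases, which sets the outermost and innermost pairs of the arms. Elsewhere in the arms the pattern sets a pyrimidine opposite a purine, and a stem-loop outside the pattern was not counted. There were 8 versions of the 16 bases. The arms paired in all of them, which the pattern largely sets. In the H1, H2A, H2B and H3 genes with a stem-loop the 5′ arm was GGCTCT. In the H4 genes it was GGCCCT in 10 and GGTCCT in 2. The sequences below stand for the versions, and each shows the stem-loop with 5 flanking bases on either side, in GENCODE M21 transcripts on GRCm38, with the arms in capitals and the loop in lower case.
Hist1h1c, chr13:23739507-23739532, plus strand: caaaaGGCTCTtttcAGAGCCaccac
Hist2h2ac, chr3:96220413-96220438, minus strand: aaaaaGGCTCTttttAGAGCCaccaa
Hist1h3e, chr13:23561898-23561923, minus strand: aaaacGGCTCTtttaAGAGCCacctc
Hist1h3g, chr13:23535884-23535909, plus strand: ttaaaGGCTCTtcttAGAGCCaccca
Hist1h4h, chr13:23531453-23531478, plus strand: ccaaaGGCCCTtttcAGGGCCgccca
Hist1h4i, chr13:22040961-22040986, minus strand: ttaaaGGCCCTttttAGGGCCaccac
Hist1h4a, chr13:23760795-23760820, minus strand: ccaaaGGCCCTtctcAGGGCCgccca
Hist1h4j, chr13:21735432-21735457, plus strand: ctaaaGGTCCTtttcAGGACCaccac

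The annotation ended these transcripts at different distances from the stem-loop. In 22 genes the transcript ended within 100 bases of it and in 22 it ran further. For 13 genes the model ended at the stop codon, and for 8 it had other bases after the stop codon but no stem-loop. The polyadenylation signal AATAAA, read on the transcript strand, lay in the last 50 bases of the longest transcript of 12 of the 65 genes (18.5%). It lay there in some transcript of 69.9% of other protein-coding genes.

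The promoters held matches to the boxes that histone genes are known for, and these differed by class. RefSeq promoters on GRCm38, from 250 bases before to 50 after the start, matched 60 of the 65 genes. Hist1h2bc, Hist2h2be, Hist1h3a, Hist1h3f and Hist2h4 had no match. All boxes were searched on both strands and at any position of this stretch, so a match need not lie where the box acts. CCAAT, bound by NF-Y, was present in every matched H1, H2A, H2B and H3 promoter and in 3 of 12 H4 promoters, against 41.0% of other promoters. In Hist2h3c1 and Hist2h3c2 the only CCAAT lay after the start. TATAAA was present in 35 of the 60 promoters (58.3%) and in 15.6% of others. AAACACA, the H1 box, was present in 5 of 6 H1 promoters and in 8.21% of others. The octamer ATTTGCAT or its complement ATGCAAAT, to which Oct-1 binds, was present in 7 H2A promoters, 5 H2B promoters and 1.92% of others, and in no H1, H3 or H4 promoter.

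Many H2A and H2B genes lie head to head, so that a single stretch of DNA serves both as promoters. In 3 such pairs the same octamer was counted in both promoters. The sequences below are given because the genes on either side of them differed in level. Each is read 5′ to 3′ along the strand of the gene named, with the octamer in capitals.
Hist1h2ae, chr13:23571325-23571364, minus strand: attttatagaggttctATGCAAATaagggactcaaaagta
Hist1h2bg, chr13:23571325-23571364, plus strand: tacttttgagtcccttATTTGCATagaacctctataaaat
Hist1h2ah, chr13:22035775-22035814, minus strand: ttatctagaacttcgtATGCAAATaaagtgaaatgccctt
Hist1h2bk, chr13:22035775-22035814, plus strand: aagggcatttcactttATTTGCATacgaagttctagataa
Hist1h2ac, chr13:23684066-23684105, minus strand: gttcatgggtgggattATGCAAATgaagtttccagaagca
The first 4 sequences are shared octamers read from either side, and the remaining shared octamer is that of the testis genes Hist1h2aa and Hist1h2ba. The octamer counted for Hist1h2ac lies between its start and that of Hist1h2bc. An octamer not shown, that of Hist2h2ac, likewise lies between its start and that of Hist2h2be. These genes were close in level per kb of transcript but not in undivided CPM. Hist2h2ac had 3.11 and 2.60 CPM and Hist2h2be 18.3 in both libraries. Whether the octamer had a part in the levels was not tested.

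A few genes held most of the histone reads in both libraries. All 65 genes together had 274.8 and 244.1 CPM in the RNA-Best and RNAlater libraries. Hist1h2bc, Hist1h1c, Hist1h2be and Hist2h2be made up 71.9% and 73.5% of these sums. Detection, set at 10 reads, was reached by 47 of the genes with RNA-Best (72.3%) and by 41 with RNAlater (63.1%). For all protein-coding genes these shares were 71.7% and 71.5%. The counts of 10 genes were below 3 in both libraries, and 28 genes averaged 1 CPM or more. These 28 were 3 H1, 2 H2A, 10 H2B, 4 H3 and 9 H4 genes.

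**Figure D1:**
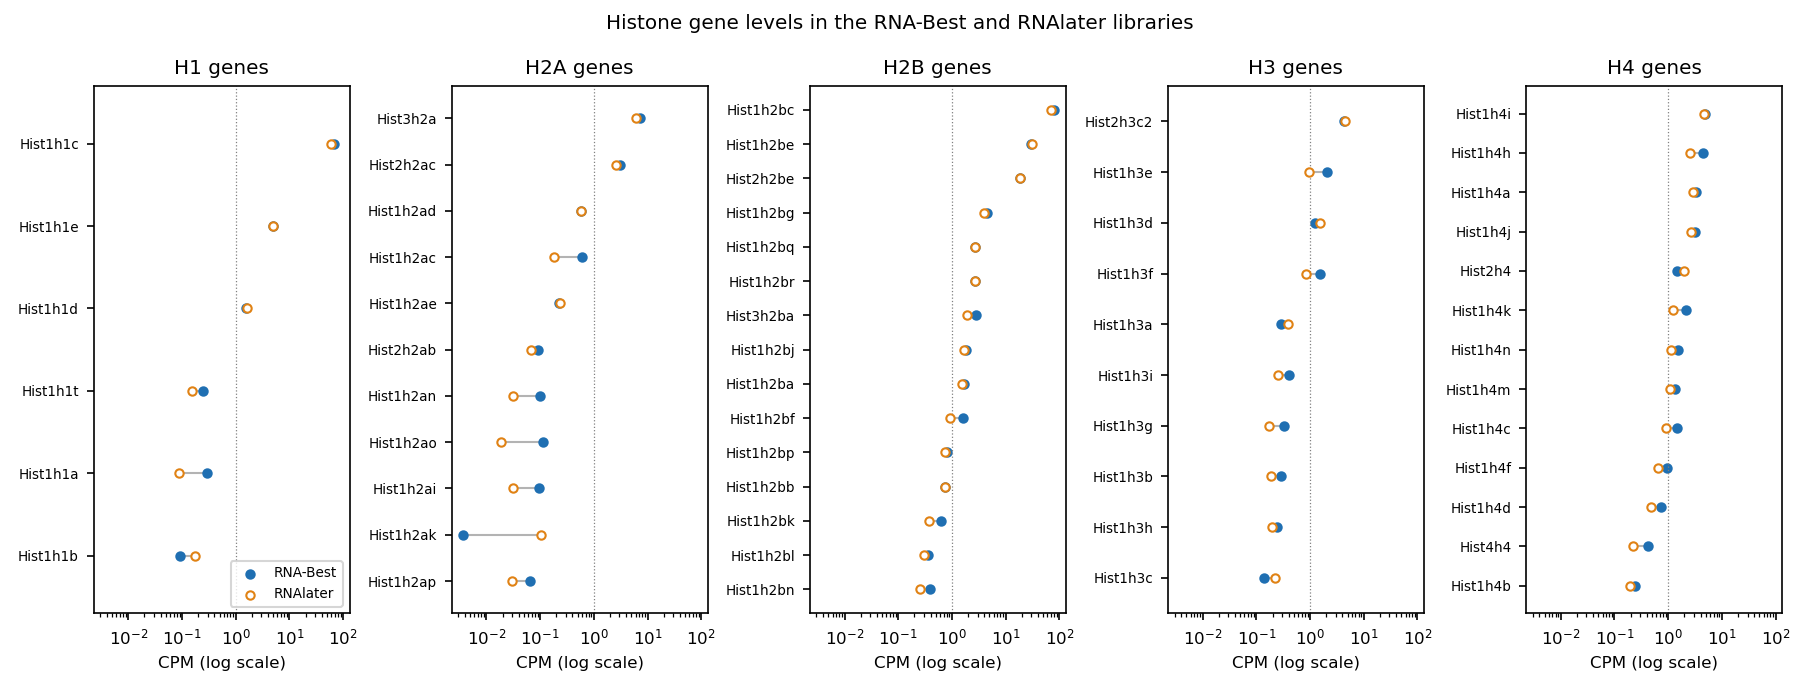
Level of each histone gene in CPM (log scale) in the RNA-Best library (filled circles) and the RNAlater library (open circles), by class, with the genes of each class in order of mean level. The 10 genes with fewer than 3 counts in both libraries are not drawn, and the dotted line marks 1 CPM. Hist1h2bc (79.9 and 71.4 CPM) and Hist1h1c (69.1 and 58.4 CPM) stand above the other genes of their classes.

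Per kb of the longest annotated transcript, H2B genes had the highest summed level, 120.4 and 107.7 CPM per kb. H1 genes followed with 47.9 and 40.7, and H4 genes with 46.8 and 34.9. H3 genes had 12.4 and 10.1 and H2A genes 12.3 and 10.4, so these 2 classes were close to each other in both libraries. Per kb of coding sequence, H2A and H3 genes were again lowest, at 31.4 and 26.5 CPM per kb in RNA-Best, and H2B genes highest at 390.1.

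Every class was slightly higher in the RNA-Best library when its counts were summed, under each of 4 ways of scaling the libraries. By library totals the ratio was 1.07 for H2B (1.04 to 1.11), 1.17 for H1 (1.12 to 1.23), 1.19 for H3 (1.05 to 1.36), 1.20 for H2A (1.07 to 1.36) and 1.27 for H4 (1.16 to 1.38). The intervals of H4 and H2B did not overlap, those of H1 and H2B did not overlap, and all other pairs of classes overlapped. Without Hist1h1c the log2 ratio of the H1 sum was 0.07 in place of 0.23, without Hist1h2bc that of the H2B sum was 0.04 in place of 0.10, and without Hist2h3c2 that of the H3 sum was 0.47 in place of 0.26.

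**Figure D2:**
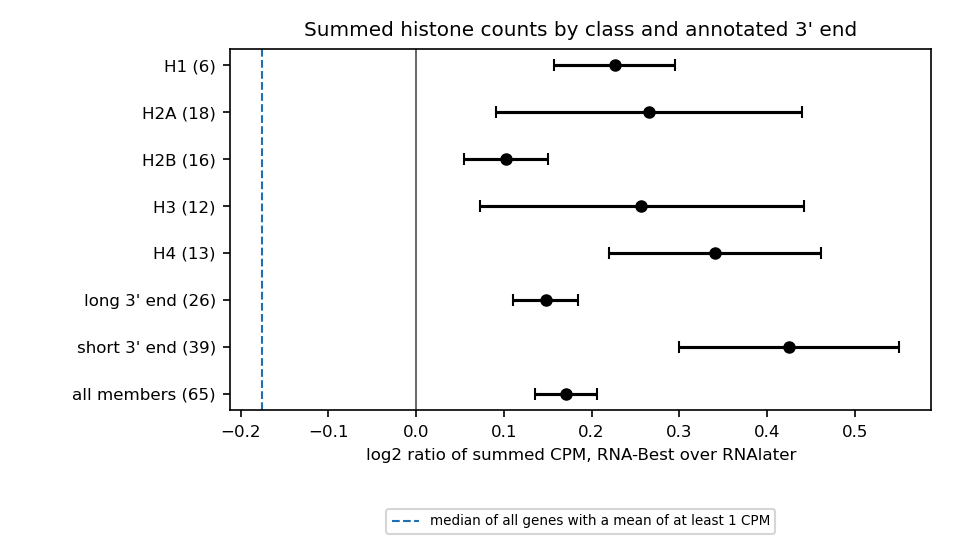
Log2 ratio of summed CPM, RNA-Best over RNAlater, for each class, for genes with a long or a short annotated 3′ end and for all 65 genes (number of genes in parentheses), with exact 95% counting intervals. The solid line marks equal CPM and the dashed line the median of all genes averaging 1 CPM or more (-0.18). H4 (0.34) and short-ended genes (0.42) lie furthest to the right and H2B (0.10) furthest to the left.

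Gene by gene, ratios were taken on log2(CPM + 0.5), which understates the difference of low genes. The median over the 28 genes averaging 1 CPM or more was 0.17, with 20 higher and 8 lower in RNA-Best. Over the 16504 genes of the table at that level it was -0.18. Over the 6 of the 28 with at least 80% unique 51-base windows, the length of a read, it was -0.02. Scaling by TMM or DESeq2 size factors, or by totals without the 2 most abundant genes of the table, moved the median of all genes by 0.16, 0.17 and 0.12 and turned the split into 26 histone genes higher and 2 lower. Histone genes lay 0.35 above the median of all genes under each of the 4 scalings, which move all genes alike, and 0.05 above other protein-coding genes once the median of their length class was taken off. Of the 28, 26 were above the median of all genes by library totals, all but Hist2h4 and Hist1h3d.

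No histone gene averaging 1 CPM or more differed 2-fold in either direction on that scale. Of all genes, 0.273% were at least 2-fold higher and 4.99% at least 2-fold lower in RNA-Best. The counting interval lay wholly above equality for 9 of the 28 genes, against 20.2% of all genes. It lay wholly below equality for none, against 51.2% of all genes. The 9 were Hist1h1c, Hist1h2bc, Hist1h2bf, Hist3h2ba, Hist1h3e, Hist1h3f, Hist1h4c, Hist1h4h and Hist1h4k.

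Among the linker histones, Hist1h1c (chr13:23738808-23740367), which encodes H1.2, had 69.1 and 58.4 CPM. It held 90.5% and 89.4% of the H1 counts, and its ratio was 1.18 (1.13 to 1.25). Hist1h1e, which encodes H1.4, had 5.05 and 4.89 CPM, and Hist1h1d, which encodes H1.3, had 1.57 and 1.61 CPM. The intervals of both included equality. Counts were low for Hist1h1a, which encodes H1.1, at 16 and 4, and for Hist1h1b, which encodes H1.5, at 5 and 8. Hist1h1t, the testis variant, had 13 and 7 counts. These 3 genes had no window shared with another gene.

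The H2A class was carried by 2 genes. Hist3h2a (chr11:58954685-58956830) had 7.20 and 6.21 CPM, 58.4% and 60.5% of the class. Hist2h2ac had 3.11 and 2.60 CPM. Both were somewhat higher in RNA-Best, with ratios of 1.16 (0.991 to 1.36) and 1.20 (0.939 to 1.53). Hist1h2ad had 0.572 and 0.566 CPM, and Hist1h2ae 0.224 and 0.236 CPM. Hist1h2ac had 33.2 and 8 counts, a ratio of 3.44 (1.56 to 8.61). An annotated rRNA gene on the same strand, Gm24991, lies within its exon and had 36 and 4 counts, and its part in the counts of Hist1h2ac was not tested. The remaining 13 H2A genes had at most 5.98 counts in either library.

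The H2B class held the most abundant of the clustered histone genes. This gene, Hist1h2bc (chr13:23684199-23692908), had 79.9 and 71.4 CPM, 53.6% and 51.4% of the class, with a ratio of 1.12 (1.07 to 1.17). Hist1h2be had 30.2 and 31.4 CPM, and Hist2h2be 18.3 CPM in both libraries. By library totals the intervals of these 2 genes included equality, with ratios of 0.963 (0.896 to 1.03) and 0.996 (0.907 to 1.09), while with TMM factors their log2 ratios were 0.12 and 0.16. Hist1h2be shares exonic bases on the same strand with Hist1h1e, so reads there could be divided between them.

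The other H2B genes were lower. Hist1h2bg had 4.51 and 3.92 CPM. Hist3h2ba had 2.84 and 1.89 CPM, a ratio of 1.5 (1.14 to 1.98), and Hist1h2bf 1.60 and 0.919 CPM, a ratio of 1.75 (1.19 to 2.60), the highest of the class. Hist1h2bq had 2.67 and 2.68 CPM and Hist1h2br 2.66 CPM in both. These 2 genes are near-identical copies, since 2.80% and 11.6% of their 51-base windows occur in no other gene, and their counts are uncertain. Hist1h2ba, the testis H2B gene, had 1.65 and 1.51 CPM, with 62.0% of its windows unique.

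In each of 12 head-to-head pairs with starts at most 1000 bases apart, the H2B gene was higher per kb of transcript than its H2A neighbour, in both libraries. These pairs were examined after the values were seen. The starts of the pairs lay 176 to 306 bases apart. The most abundant H2B gene, Hist1h2bc, had 69.1 and 61.7 CPM per kb beside Hist1h2ac with 0.248 and 0.0718. The narrowest contrast per kb was Hist2h2be with 6.97 and 7.0 beside Hist2h2ac with 5.98 and 5.00. It depends on the division by length, since in undivided CPM they had 18.3 in both libraries beside 3.11 and 2.60. Hist1h2bg had 7.30 and 6.35 CPM per kb beside Hist1h2ae with 0.318 and 0.336. The H2A genes Hist1h2aa, Hist1h2ag and Hist1h2ah had fewer than 3 counts in both libraries. Of the 12 H2A genes, 8 had fewer than 3 in 1 or both, so that their levels are uncertain at this depth. The direction was the same in all 12 pairs with H2A genes below 3 counts set to 3, with coding length or with undivided CPM. Setting 3 counts does not cover reads of shared sequence that may have been credited to other genes.

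**Figure D3:**
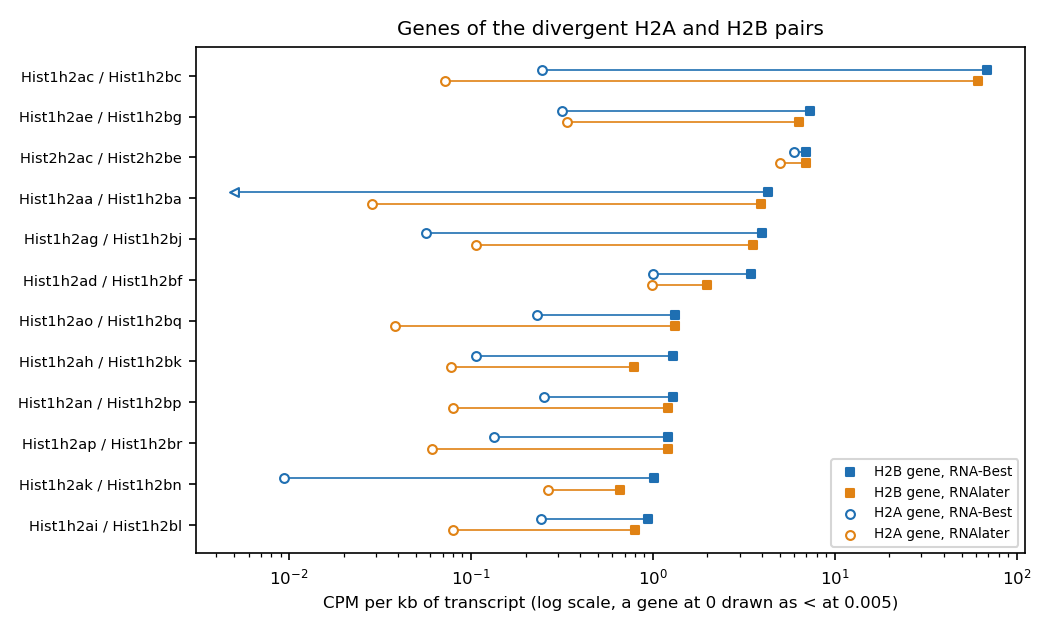
CPM per kb of transcript (log scale) of the H2B gene (squares) and the H2A gene (circles) of each of 12 head-to-head pairs, in RNA-Best and RNAlater, with a line joining the genes of a pair in a library. Hist1h2aa is at 0 in RNA-Best. The square lies to the right of the circle in every pair, with the least distance for Hist2h2ac and Hist2h2be.

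The annotation around H2A and H2B genes also differed. All 18 H2A genes overlapped an annotated gene on the opposite strand, and 17 overlapped a miRNA model of 129 to 144 bases, while 3 of the 47 other histone genes had an opposite-strand overlap. All 17 miRNA models had 0 counts in both libraries. The median share of unique windows was 27.0% for H2A and 45.6% for H2B genes. The strand setting and the treatment of reads on overlapping genes are not given in the sources used here, so reads of opposite-strand partners cannot be told apart, and the part of overlaps and shared sequence in the low H2A counts was not tested.

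The H3 class held the gene with the highest ratio. Hist2h3c2 (chr3:96238108-96239127) was the most abundant at 4.33 and 4.39 CPM, with a ratio of 0.990 (0.815 to 1.20). Hist1h3e (chr13:23561534-23562369) had 2.09 and 0.961 CPM, or 112.7 and 43.2 counts. Its ratio of 2.19 (1.53 to 3.19) was the highest of the 28 genes and past 2-fold only before the 0.5 CPM was added. Hist1h3f had 1.54 and 0.845 CPM, a ratio of 1.82 (1.23 to 2.75). Hist1h3d went the other way, with 1.26 and 1.53 CPM and a ratio of 0.821 (0.579 to 1.16), an interval that included equality. Hist1h3a had 0.283 and 0.387 CPM. The share of unique windows was 27.1% for Hist1h3e, 50.9% for Hist1h3f and 75.3% for Hist1h3d.

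The H4 genes, which encode the same core histone from many copies, were the class in which the leading gene held the smallest share. All 13 had at least 10 reads in RNA-Best and 12 had them in RNAlater, and the most abundant, Hist1h4i, held 18.6% and 22.6% of the class. Hist1h4i had 4.86 and 4.67 CPM. Hist1h4a had 3.30 and 2.94 CPM and Hist1h4j 3.18 and 2.62 CPM, and the intervals of all 3 included equality.

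Differences between reagents were larger for other H4 genes. Hist1h4h (chr13:23531050-23531519) had 4.52 and 2.59 CPM, a ratio of 1.75 (1.40 to 2.21). Hist1h4k had 2.14 and 1.22 CPM, a ratio of 1.74 (1.25 to 2.45), and Hist1h4c 1.48 and 0.893 CPM, a ratio of 1.67 (1.13 to 2.5). Hist2h4 had 1.46 and 1.98 CPM, the lowest log2 ratio of the 28 genes at -0.34, although its interval of 0.539 to 1.01 included equality. Its windows were 99.1% unique.

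Where the annotated transcript ended went with both level and ratio. A 3′ end was called long where the longest transcript ran over 100 bases past the stem-loop or, without one, had over 100 bases after the stop codon. This division was made after the values were seen. The median share of unique windows was 73.3% for long-ended and 29.0% for short-ended genes, and its part in levels and ratios was not tested. The 26 long-ended genes had 249.7 and 225.4 CPM, which was 90.9% and 92.4% of all histone counts. The 39 short-ended genes had 25.1 and 18.7 CPM. Per kb of transcript the sums were 183.3 and 162.3 for long-ended and 56.5 and 41.5 for short-ended genes. The 4 most abundant genes, all long-ended, held 132.4 and 118.7 of the long-ended sums. Per kb of coding sequence the sums were 580.2 and 527.6 for long-ended and 70.8 and 52.0 for short-ended genes. Coding length leaves out the bases of a long 3′ end but not its reads, which raises the values of long-ended genes.

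The summed counts gave a ratio of 1.11 (1.08 to 1.14) for long-ended and 1.34 (1.23 to 1.47) for short-ended genes, and these counting intervals did not overlap. Within H4 it was 1.12 (1.01 to 1.24) for the 7 long-ended and 1.57 (1.36 to 1.80) for the 6 short-ended genes. Within H2B it was 1.07 (1.03 to 1.10) for 7 and 1.23 (1.06 to 1.43) for 9 genes. Within H2A the ratios were 1.21 (1.04 to 1.41) and 1.19 (0.966 to 1.46), within H3 1.19 (1.04 to 1.37) and 1.18 (0.851 to 1.66), and within H1 1.17 (1.11 to 1.23) for 4 and 1.46 (0.685 to 3.25) for 2 genes. The intervals did not overlap within H4 and overlapped within the other classes.

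Short-ended genes were also short genes, with a median transcript of 463 bases against 1255 bases for long-ended genes, and short transcripts of other kinds were higher in RNA-Best too. Among other protein-coding genes the median log2 ratio was 0.32 for transcripts up to 1 kb, 0.09 for 1 to 2 kb and -0.09 for 2 to 3 kb. The histone genes of these lengths had medians of 0.24 (15 genes, all higher in RNA-Best), 0.04 (7 genes) and -0.01 (5 genes). Hist1h1d, whose annotated transcript is 7425 bases long, had -0.03, where other genes of 6 to 10 kb had a median of -0.65. Less the median of their length class, the 28 histone genes had a median log2 ratio of 0.05. Across the 28 genes the log2 ratio and log10 transcript length had a Pearson's r of -0.50 and a Spearman's rho of -0.56, which describe genes of the same 2 libraries and not independent samples. The parts of length and of 3′ end could not be told apart in the ratios of these genes.

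**Figure D4:**
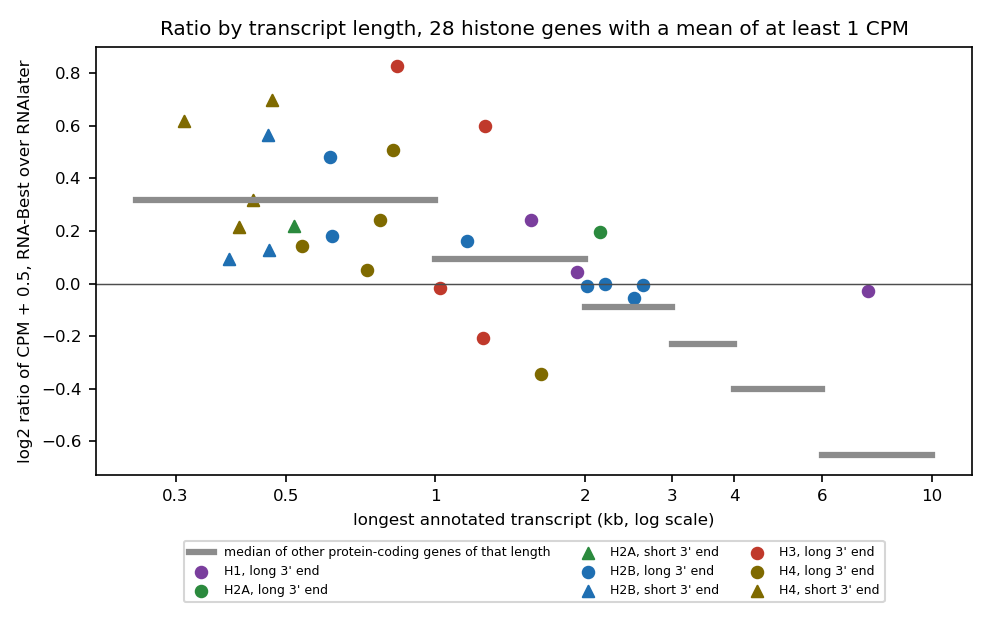
Log2 ratio of CPM + 0.5, RNA-Best over RNAlater, against the longest annotated transcript in kb (log scale) for the 28 histone genes averaging 1 CPM or more, by class (colour) and annotated 3′ end (circle, long; triangle, short). Grey bars show the median of other protein-coding genes of each length. The 15 histone genes up to 1 kb lie above 0 and scatter around the bar at 0.32, and Hist1h1d at 7425 bases lies above the bar at -0.65.

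Some genes could not be measured. Hist2h2aa1, Hist2h2aa2, Hist2h2bb, Hist2h3b and Hist2h3c1 were listed at 0 in both libraries, where 3 counts would be 0.0556 and 0.0668 CPM. None of their 51-base windows was unique, and each overlapped a gene model with a Gm symbol. Gm20632, opposite to Hist2h2aa2, had 220.2 and 201.8 counts. Gm20634, on the strand of Hist2h2aa1 and Hist2h3c1, had 110.5 and 101.5 counts. These values therefore do not show that the 5 genes were silent. Hist1h2aa, the testis H2A gene, had 0 and 0.5 counts although 76.5% of its windows were unique.

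Replication-independent histone genes, most of which make polyadenylated mRNA outside S phase as well, had more CPM together than the clustered genes. Among them, Cenpa is expressed late in the cell cycle, and H2afx also makes a stem-loop mRNA. The 11 genes of this list had 972.7 and 1036 CPM together. Of the 11, 6 were higher and 5 lower in RNA-Best, or 10 and 1 with TMM factors, with a median log2 ratio of 0.17 and none past 2-fold. The median was positive while the log2 ratio of the sum was -0.09, since H3f3b holds most of the sum. The clustered genes had the same median of 0.17. H3f3b, which encodes H3.3, had 514.5 and 592.0 CPM, a ratio of 0.869 (0.855 to 0.884) and the lowest of the list. H1f0, the H1 of resting cells, had 147.0 and 158.2 CPM. H2afy, which encodes macroH2A, had 108.4 and 121.4 CPM.

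H2afz, which encodes H2A.Z, had 83.5 and 65.0 CPM, and H2afv, its close relative, 35.1 and 25.1 CPM. These 2 were higher in RNA-Best, with ratios of 1.29 (1.23 to 1.35) and 1.40 (1.30 to 1.51), and H2afj was the highest of the list at 1.42 (1.28 to 1.58). Per kb of transcript, H3f3b had 204.7 and 235.5 CPM per kb, H2afz 78.2 and 60.8 and H1f0 71.5 and 77.0. Hist1h2bc, the highest clustered gene, had 69.1 and 61.7 CPM per kb.

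Of the factors that make histone mRNA, the protein-coding genes found were present as mRNA. The U7 snRNA, which has no poly(A) tail, had 0 counts in both libraries, which does not show that it was absent. Of 22 listed processing factors, 21 were found and all averaged 1 CPM or more, 7 higher and 14 lower in RNA-Best, or 10 and 11 with DESeq2 factors, with a median log2 ratio of -0.18, as over all genes, and none past 2-fold. Slbp had 34.6 and 41.4 CPM. Npat, the coactivator of histone transcription, had 16.6 and 22.6 CPM, and Casp8ap2, which encodes FLASH, 12.1 and 16.4 CPM. The U7 snRNP subunits Lsm10 and Lsm11 had 7.42 and 6.77 CPM and 2.80 and 3.29 CPM. The list ran from Upf1, which acts in the decay of histone mRNA, at -0.79 to the Sm protein gene Snrpe at 0.58.

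Histone chaperone genes had a median close to that of all genes. All 16 averaged 1 CPM or more, 6 higher and 10 lower in RNA-Best, with a median log2 ratio of -0.21 beside -0.18 for all genes and none past 2-fold. They ran from Chaf1b, a subunit of the chromatin assembly factor CAF-1, at -0.70 to Rbbp4 at 0.37.

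Genes of S phase and cell division had a median near that of all genes, with Mki67 and Top2a below it. All 24 averaged 1 CPM or more, 6 higher and 18 lower in RNA-Best, or 12 and 12 with TMM factors, with a median log2 ratio of -0.14 beside -0.18 for all genes, and 1 was past 2-fold. That gene was Mki67, the proliferation marker, with 5.91 and 13.6 CPM, a ratio of 0.435 (0.379 to 0.499). Top2a, the topoisomerase of dividing cells, had 5.32 and 11.1 CPM, a log2 ratio of -0.99. Their transcripts are long, 10061 bases for Mki67 and 5221 for Top2a, and other protein-coding genes had medians of -0.91 over 10 kb and -0.40 at 4 to 6 kb. Pcna, the clamp of the replication fork, had 57.1 and 59.5 CPM, and Mcm2, of the replicative helicase, 16.6 and 16.9 CPM, and the intervals of both ratios included equality. Tyms was the highest of the list at 0.40. The list had 232.2 and 278.9 CPM together.

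Other measured differences between the libraries lay beside these values, and their part in the histone ratios was not tested. The 7 pituitary hormone genes held 30.7% and 23.9% of all counts, all 7 higher in RNA-Best, with log2 ratios from 0.04 (Gh) to 0.73 (Tshb). The 5 erythroid genes had 3200.4 and 1130 CPM together, all 5 higher in RNA-Best, from 0.67 (Alas2) to 2.02 (Hbb-bt). The 4 endothelial genes had 168.8 and 372.3 CPM, all 4 lower, from -1.63 (Kdr) to -0.59 (Emcn). The 5 macrophage genes had 170.1 and 153.1 CPM, 3 higher and 2 lower, from -0.75 (Csf1r) to 0.56 (C1qa). Of 5 T and B cell genes, Cd79a and Cd79b reached 1 CPM, at 0.09 and 0.29, and the list had 8.55 and 7.66 CPM in all.

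RNAs that lack a poly(A) tail by nature were also measured, since most clustered histone mRNA shares that trait. Of 11 such RNAs listed, 9 were found and 2 averaged 1 CPM or more. Rn7sk, the 7SK RNA, had 5.47 and 4.15 CPM, a ratio of 1.32 (1.10 to 1.60). Rpph1, the RNA of RNase P, had 1.85 and 0.401 CPM, a ratio of 4.63 (2.78 to 8.13). Genes annotated as rRNA held 0.461% and 0.133% of counts, while snoRNA genes had 67.9 and 62.1 CPM together. As sums, all of these were higher in RNA-Best, and whether carry-over of RNA without a tail differed between the libraries was not tested.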

How the data were processed

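Samples were grouped by the stabilizer in the labels, with 1 library per reagent. The authors deposited a table of estimated counts per gene, not normalized, which the submitters' processing notes credit to STAR 2.5.1b and featureCounts 1.5.0-p1 on mm10. Of the values above 0, 35.4% in RNA-Best and 34.9% in RNAlater were not whole, so some reads were divided between genes. The study's methods name GENCODE M8 with these tools for its cell line libraries. The counting options, the strand setting and the release used for these 2 libraries are not given in the sources used here. The study's methods give single reads of 51 bases.

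Gene symbols, types, coordinates and transcripts came from GENCODE M21 on GRCm38 (46574 of 47069 identifiers matched), and promoters from RefSeq on GRCm38. A transcript window of 51 bases was called unique where it occurs in no transcript of another gene. The length of a gene was that of its longest transcript, and the coding length was used as an alternative.

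CPM used column totals. Log2 ratios added 0.5 CPM and used genes averaging 1 CPM or more. Counts were rounded for 95% intervals, computed in scipy 1.17.1 without the pseudocount and tested on simulated data, and for TMM factors (edgeR 4.0.16) and size factors (DESeq2 1.42.0), run under R 4.3.3. With 1 library per group no linear model could be fitted, and no p-value is given. The histone genes and the comparison lists were chosen with earlier results of these data known. Named by rule were the 5 most abundant genes and the highest and lowest ratio of each class, the testis genes Hist1h1t, Hist1h2aa and Hist1h2ba, the 5 most abundant replication-independent histone genes, Slbp, Npat, Casp8ap2, Lsm10, Lsm11, Mki67, Top2a, Pcna and Mcm2, and the ends of each list. Other genes were named after their values were seen. A few genes are not analysed here.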

Additional observations from a re-analysis of the deposited data

How the results depend on the processing

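The precision was limited by depth for all but the most abundant genes, since 37 of the 65 histone genes had a mean below 1 CPM. Of 77 values recomputed for the results on gene groups, 47 stayed within the counting interval of the summed counts or within 1.5 times the count. Another 29 moved beyond it and 1 changed sign. The 47 include many counts of 2-fold genes that remained 0. They also include the RNAlater detection count, which was scaled to its own total and could not change. The median log2 ratio, 0.17, was -0.017 over the 6 genes with at least 80% unique windows, an alternative chosen after seeing the data. It was 0.33, 0.34 and 0.29 with TMM, DESeq2 factors and totals without the 2 most abundant genes, 0.13 with a pseudocount of 2 CPM, 0.078 over the 4 genes of at least 10 CPM, 0.34 over the 2 with whole counts and 0.051 less the median of the length class. With a pseudocount of 0.1 CPM 1 gene, Hist1h3e, was 2-fold higher in place of 0, and no alternative gave a gene 2-fold lower. With TMM, DESeq2 factors and totals without the 2 most abundant genes, the log2 ratio of the class sum was 0.40, 0.41 and 0.35 for H1 (main value 0.23), 0.28, 0.29 and 0.23 for H2B (0.10) and 0.51, 0.53 and 0.47 for H4 (0.34). With DESeq2 factors it was 0.45 for H2A (0.27). With TMM and DESeq2 factors it was 0.32 and 0.33 for long-ended genes (0.15) and 0.60 and 0.61 for short-ended genes (0.42), both chosen after seeing the data. These factors moved all genes alike. Without its most abundant gene the log2 ratio of the sum was 0.067 for H1, 0.037 for H2B and 0.47 for H3 (0.26). The median over genes of at least 1 CPM was 0.043 for H1. From genes with whole counts in both libraries, which need no division of reads, the sum was 0.58 for H1 (3 genes) and 0.22 for H2A (4 genes). It was 0.58 for H2B (2 genes) and 0.94 for H4 (1 gene), and no value could be given for H3. These sums rest on few reads for H1, whose 3 genes had at most 16 counts in either library. The H4 gene, Hist4h4, had 23 and 10 counts, with an interval of -0.19 to 2.17. Of the 2 H2B genes, Hist2h2bb had 0 counts in both libraries, so the value is that of Hist3h2ba. The causes of these moves were not tested. Limits of 50 and 200 bases for a long 3′ end gave 0.15 and 0.14 for long-ended and 0.46 and 0.38 for short-ended genes. The number of genes with at least 10 reads in RNA-Best was still 47 when that library was scaled to the total of the other. No paired analysis was possible because each reagent had 1 library and the labels carry no replicate numbers.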
